A study of Homo sapiens with 6 samples.

Results

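Expression of 6 fibroblast growth factor (FGF) ligands, FGF1, FGF2, FGF5, FGF7, FGF10 and FGF18, and of 3 FGF receptors, FGFR1, FGFR3 and FGFR4, was examined in a human mesenchymal stem cell line. The list holds 10 genes chosen by symbol, and 9 of them were found among the 28181 genes of the tables. FGFR2, the other listed receptor, was not analysed here. The study asked what SHC4 overexpression changes in cells that were to be led into decellularized bone. UE7T-9 SHC4 and UE7T-9 Cont are both derived from UE7T-9, a bone marrow line immortalized with hTERT and papillomavirus E7, and 3 libraries of total RNA were made from each. UE7T-9 SHC4 carried a lentiviral SHC4 coding region behind a CMV promoter and was selected with puromycin. UE7T-9 Cont carried GFP in the matching vector according to the methods, while the labels name these samples Nontarget with genotype WT. The series text speaks of clones, and whether the 3 libraries of a group came from separate infections, clones or cultures is not stated, so every p-value measures only the spread between these samples, which may be technical.

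FGF ligands are secreted proteins that bind receptor tyrosine kinases together with heparan sulfate and start the RAS-MAPK, PI3K and phospholipase C cascades. FGF2 is a classic mitogen of bone marrow stromal cells, whereas FGF7 and FGF10 are made by mesenchyme and act mainly on neighbouring epithelium. Sprouty and SPRED proteins and dual-specificity phosphatases damp the cascade, and the ETV4 and ETV5 transcription factors are among its usual targets. SHC4 is an adaptor of the SHC family, which links activated receptors to GRB2 and RAS.

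The deposited value of a gene is its read count divided by 1 size factor per library, called the normalized count below. Depth ran from 18144993 to 27721397 reads per library, and 3 reads, taken as the detection floor, corresponded to a normalized count of 2.50 to 3.53. The SHC4 normalized count was 56.5 to 157 in UE7T-9 Cont against 119166 to 155006 in UE7T-9 SHC4 (limma log2 fold change 10.32, standard error (SE) 0.32), so all 6 libraries matched their labels. All 8 mesenchymal stem cell markers were detected, with COL1A1 at 315042 and 276719 in replicate 1 of UE7T-9 Cont and of UE7T-9 SHC4 against 67813 to 130035 in the other 4 libraries. Of the markers of other cell types, PTPRC of blood cells was at 0 to 6.82, CDH5 of endothelium at 0 to 1.18 and EPCAM of epithelium at 0 to 4.92. HLA-DRA (72.8 to 262), CD14 (52.7 to 88.3), CD34 (39.6 to 52.7), ITGAM (12.8 to 42.5), VWF (34.4 to 65.3) and PECAM1 (7.80 to 38.4) were above the floor in all libraries. PECAM1 was at 36.6 and 38.4 in UE7T-9 SHC4 replicates 2 and 3 against 7.80 to 12.8 in the other libraries. CDH1 was at 2.50 to 17.6 and TEK at 0.832 to 10.8. The summed blood markers were 218 to 407 in UE7T-9 Cont against 274 to 346 in UE7T-9 SHC4, and the summed endothelial markers were 58.0 to 78.9 against 49.2 to 96.7. The summed epithelial markers were 55.3 to 127 in UE7T-9 Cont against 8.32 to 39.5 in UE7T-9 SHC4 (KRT18 37.7 to 112 against 3.33 to 21.1), and their part in the results was not tested. UE7T-9 Cont replicate 1 stood apart from the other controls. Its Pearson correlation of log2 values across genes was 0.967 and 0.962 with them, but 0.975, 0.969 and 0.968 with replicates 1, 2 and 3 of UE7T-9 SHC4. UE7T-9 SHC4 replicate 1 had correlations of 0.978 and 0.975 within its own group. Several results that rest on these 2 libraries are therefore given with and without 1 or both of them.

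No FGF ligand or receptor passed the limma test in UE7T-9 SHC4 against UE7T-9 Cont. A gene was called where its Benjamini-Hochberg adjusted p was below 0.05 and its log2 fold change lay beyond 1 in either direction, which held for 0.0608% of all 23040 genes tested and for 0 of 9 members. DESeq2 on the recovered reads called 1 of the 6 members to which it gave an adjusted p, FGF10, which was higher, against a called share of 2.2% over its 16153 genes (1.05% higher and 1.15% lower). edgeR called 0 members (0.0631% of its genes). Without UE7T-9 Cont replicate 1 both limma (3.06% of all genes called) and DESeq2 (5.56%) called FGF1 lower, and without UE7T-9 SHC4 replicate 1 both limma (0.274%) and DESeq2 (2.73%) called FGF10 higher. Unadjusted limma p-values below 0.05 were found for 3 members, FGF7, FGF1 and FGFR3, against 14.4% of all genes. Of the 9 members 4 had a positive and 5 a negative log2 fold change, with a median of -0.17 beside -0.004 over all genes. In bulk RNA, fewer cells of a type and less RNA per cell cannot be told apart.

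**Figure D1:**
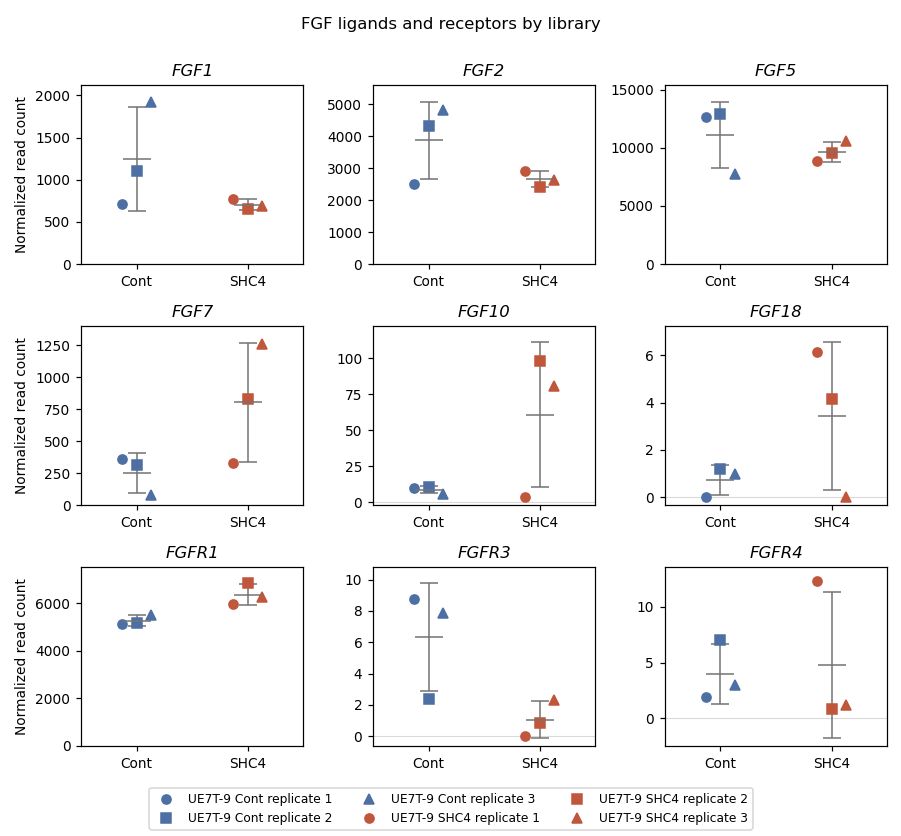
Normalized read counts (y axes, linear, a separate scale for each gene) of the 9 members in each library of UE7T-9 Cont (blue) and UE7T-9 SHC4 (red). Grey lines give the mean and SD of 3 libraries, and the groups are separate only for FGFR1 and FGFR3, while FGF7 and FGF10 are high in UE7T-9 SHC4 replicates 2 and 3 and not in replicate 1. Among all genes tested, 9.13% were separate and higher in UE7T-9 SHC4, and 10.2% were separate and lower.

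The plot of normalized counts by library shows that all members but FGFR1 and FGFR3 overlapped between the groups. Among all genes tested, 9.13% were separate and higher in UE7T-9 SHC4, and 10.2% were separate and lower. Levels between genes were compared per kb of annotated exon, averaged over the libraries of a group. All annotated exons of a gene were merged for its length, 13842 bases for FGFR1 and 6775 for FGF2. The order of genes with close levels depends on that choice. FGF5 was the most abundant member, at 1850 normalized counts per kb in UE7T-9 Cont against 1609 in UE7T-9 SHC4, above 98.4% of all genes over the 6 libraries. FGF2 followed at 572 and 393 per kb. FGFR1 had 380 and 460 per kb, which overlapped with FGF2 in UE7T-9 Cont, whereas in UE7T-9 SHC4 all FGFR1 libraries were above those of FGF2, by less than 1 per kb at the nearest. FGF1 lay at 237 and 134 per kb, below FGFR1 in every library. FGF7 came next at 37.6 and 121 per kb, below FGF1 in UE7T-9 Cont but overlapping with it in UE7T-9 SHC4. FGF10 had 2.91 and 20.2 per kb, above FGF18 in UE7T-9 Cont but overlapping with it in UE7T-9 SHC4. In UE7T-9 SHC4 replicate 1 FGF10 was at 1.17 per kb, below FGF18 (3.10) and FGFR4 (2.55). The means of FGF18, FGFR4 and FGFR3 were all below 2 per kb in both groups, and their libraries overlapped. The ligand pool was thus led by FGF5 in all libraries, and the receptor pool by FGFR1.

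**Figure D2:**
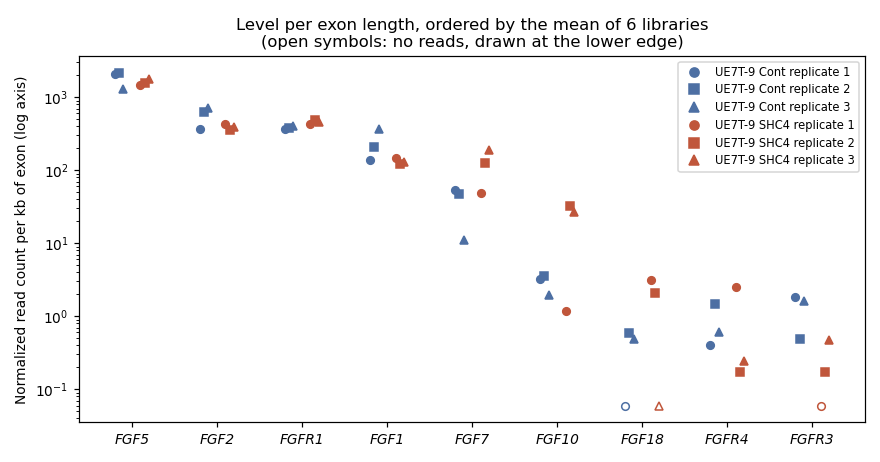
Normalized read count per kb of exon (log axis) for each member in each library, ordered by the mean of 6 libraries, with UE7T-9 Cont in blue and UE7T-9 SHC4 in red. FGF5 is highest in all 6 libraries, and FGF18, FGFR4 and FGFR3 have the lowest means, where open symbols mark libraries without a read. In UE7T-9 SHC4 replicate 1, FGF10 lies below FGF18 and FGFR4.

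The makeup of the measured ligand pool shifted between libraries, as the plot of levels per kb shows. FGF5 made up 78.8%, 70.5% and 54.4% of the summed ligand level per kb in replicates 1, 2 and 3 of UE7T-9 Cont, while in UE7T-9 SHC4 it made up 70.0%, 71.3% and 70.5%. FGF2 made up 13.9%, 20.9% and 29.7% in UE7T-9 Cont against 20.5%, 16.1% and 15.6% in UE7T-9 SHC4. The FGF7 share was 2.02%, 1.56% and 0.471% in UE7T-9 Cont against 2.32%, 5.57% and 7.57% in UE7T-9 SHC4, with no overlap between the groups. The FGF7 level itself overlapped, at 54.0 per kb in UE7T-9 Cont replicate 1 against 49.0 in UE7T-9 SHC4 replicate 1. The summed ligand level of these libraries was 2671 and 2107 per kb, so the separation of the shares rests on the other ligands too. FGF10 made up at most 0.121% in UE7T-9 Cont, 0.0554% in UE7T-9 SHC4 replicate 1 and 1.47% and 1.07% in replicates 2 and 3. These shares exclude any ligand outside the 6 members.

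FGF7 and FGF10, a pair of related mesenchymal ligands that share the epithelial form of FGFR2 as their receptor, had the highest limma log2 fold changes of the members, while in DESeq2 that of FGF18, a gene near the floor, was above that of FGF7 (2.30 against 1.68). Their coding sequences are shown because the pair was high in the same libraries, so that the likeness of the sequences bears on how well their reads can be told apart. A stretch of 90 coding bases from each, within 1 exon, is given from GENCODE 29 on GRCh38 at chr15:49484346-49484435 on the plus strand for FGF7 and at chr5:44305067-44305156 on the minus strand for FGF10. Capitals mark the 30 positions at which the sequences differ.
FGF7: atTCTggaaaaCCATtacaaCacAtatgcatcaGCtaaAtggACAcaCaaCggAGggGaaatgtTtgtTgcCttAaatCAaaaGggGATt
FGF10: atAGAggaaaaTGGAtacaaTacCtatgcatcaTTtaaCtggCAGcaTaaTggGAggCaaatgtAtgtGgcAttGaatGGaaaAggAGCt
Over the aligned coding regions 360 of 580 bases were identical (62.1%), and the longest identical run was 12 bases. No 50-base stretch was shared between these genes.

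FGF7, also known as keratinocyte growth factor, lies at chr15:49423096-49488775 on the plus strand, 460 kb from the chromosomal SHC4 gene (chr15:48823735-48963444, minus strand). Its normalized count was 360, 317 and 74.8 in replicates 1, 2 and 3 of UE7T-9 Cont and 326, 826 and 1260 in those of UE7T-9 SHC4. UE7T-9 SHC4 replicates 2 and 3 were above all controls, replicate 1 lay among them, and UE7T-9 Cont replicate 3 was the lowest library. The means were 250 ± 154 and 804 ± 467 (SD, n = 3 each), a ratio of 3.21. The limma log2 fold change on the log2(normalized count + 1) scale was 1.77 (SE 0.62, 95% interval 0.37 to 3.16, adjusted p = 0.258), and the adjusted p was 0.254 in DESeq2 and 0.237 in edgeR. An exact permutation test of the means gave a two-sided p of 0.2, where 3 libraries against 3 allow no less than 0.1. Without UE7T-9 SHC4 replicate 1 limma gave a log2 fold change of 2.31 (adjusted p = 0.167), and without UE7T-9 Cont replicate 3 it was 1.05 (adjusted p = 0.50). Without UE7T-9 Cont replicate 1 it was 2.17 (limma adjusted p = 0.0766). Without both replicate 1 libraries, a choice made after the values were seen, it was 2.72 (limma adjusted p = 0.0176). Of the 6657 distinct 50-base stretches of FGF7 transcripts 9.28% also occurred in other genes, mainly the pseudogenes FGF7P6 and FGF7P3. The genes sharing them had a summed mean normalized count of 2.33. How reads from shared stretches were divided between FGF7 and these genes was not tested.

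FGF10, which drives branching of lung and limb outgrowth in development, lies at chr5:44303544-44389706 on the minus strand. Its normalized count was 9.75, 10.6 and 5.90 in UE7T-9 Cont against 3.52, 98.2 and 80.3 in UE7T-9 SHC4 replicates 1, 2 and 3. These values stand for 10, 9 and 6 reads and for 4, 118 and 69 reads. UE7T-9 SHC4 replicate 1 was the lowest of all 6 libraries, and the other libraries of its group were the highest. The DESeq2 log2 fold change was 2.80 (SE 0.85, adjusted p = 0.0332), which passed the call rule. limma gave 1.80 (SE 1.03, 95% interval -0.51 to 4.11, adjusted p = 0.456), edgeR gave an adjusted p of 0.224, and the exact permutation p was 0.4. Without UE7T-9 SHC4 replicate 1 the call was made by both tools, with a log2 fold change of 3.24 in limma (adjusted p = 0.0453) and of 3.36 in DESeq2 (adjusted p = 4.74e-08). Without UE7T-9 Cont replicate 1 neither tool made it (adjusted p = 0.376 in limma and 0.187 in DESeq2). The antisense gene FGF10-AS1 overlaps 182 exon bases of FGF10 and had a mean normalized count of 0.749. FGF10-AS1 was at 0 to 3.33 across the libraries. The strand setting of the counting is not given in the sources used here, so reads within the 182 shared bases cannot be told apart.

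FGF1 and FGF2, the acidic and basic ligands that lack a classical signal peptide, were lower in UE7T-9 SHC4 than in UE7T-9 Cont replicates 2 and 3, and UE7T-9 Cont replicate 1 lay with UE7T-9 SHC4. They are shown side by side because they had this pattern in common and are related in sequence. The 90 coding bases given are the most similar window of the pair and are spliced together across an intron. They were taken from GENCODE 29 on GRCh38 at chr5:142600801-142614043 on the minus strand for FGF1 and at chr4:122827268-122876325 on the plus strand for FGF2, and capitals mark the 26 differing positions.
FGF1: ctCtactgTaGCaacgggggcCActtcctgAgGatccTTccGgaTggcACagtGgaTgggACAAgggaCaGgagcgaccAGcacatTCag
FGF2: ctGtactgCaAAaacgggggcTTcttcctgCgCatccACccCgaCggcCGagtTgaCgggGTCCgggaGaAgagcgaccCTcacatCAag
Over the aligned coding regions 273 of 457 bases were identical (59.7%), with a longest identical run of 9 bases.

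FGF1, a ligand that binds all FGF receptors, lies at chr5:142592178-142698070 on the minus strand. The normalized count of FGF1 was 717, 1103 and 1927 in UE7T-9 Cont against 773, 648 and 694 in UE7T-9 SHC4. The 3 UE7T-9 SHC4 libraries were close together, and UE7T-9 Cont spread over a far wider range with replicate 1 inside that of UE7T-9 SHC4. The means were 1249 ± 618 and 705 ± 63.6 (SD, n = 3 each). limma estimated a log2 fold change of -0.71 (SE 0.30, 95% interval -1.38 to -0.04, adjusted p = 0.32). DESeq2 gave -0.83 (adjusted p = 0.119), edgeR gave an adjusted p of 0.253 and the exact permutation p was 0.2. Leaving out UE7T-9 Cont replicate 1 brought the limma value to -1.05 (adjusted p = 0.0239) and the DESeq2 value to -1.10 (adjusted p = 2.59e-04), both past the call rule, whereas leaving out UE7T-9 Cont replicate 3 brought the limma value to -0.34 (adjusted p = 0.591).

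FGF2 lies at chr4:122826708-122898236 on the plus strand. Normalized counts were 2518, 4310 and 4805 in UE7T-9 Cont against 2922, 2421 and 2635 in UE7T-9 SHC4. UE7T-9 Cont replicate 1 was below 2 of the 3 UE7T-9 SHC4 libraries, and the other controls were above all of them. The means were 3878 ± 1203 and 2660 ± 251 (SD, n = 3 each), or -0.49 as a limma log2 fold change (SE 0.23, 95% interval -1.002 to 0.013, adjusted p = 0.358), against -0.54 in DESeq2 (adjusted p = 0.22). The edgeR adjusted p was 0.281 and the exact permutation p was 0.3. Without UE7T-9 Cont replicate 1 limma gave a log2 fold change of -0.78 (adjusted p = 0.0135), short of the fold threshold. DESeq2 without that library also gave -0.78 (adjusted p = 3.53e-05). With any other single library left out, the limma adjusted p of FGF2 was 0.377 to 0.698. FGF2 shares 804 exon bases (11.9% of its exon length) with NUDT6 on the opposite strand, which had a mean normalized count of 80.2.

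FGF5, a ligand known for ending the hair growth phase, lies at chr4:80266599-80336680 on the plus strand. Normalized counts were 12630, 12873 and 7781 in UE7T-9 Cont against 8853, 9519 and 10575 in UE7T-9 SHC4. UE7T-9 SHC4 lay inside the range of UE7T-9 Cont, whose replicate 3 was the lowest of all libraries. The means were 11095 ± 2872 and 9649 ± 868 (SD, n = 3 each), with a limma log2 fold change of -0.17 (SE 0.21, 95% interval -0.64 to 0.31, adjusted p = 0.762) and an exact permutation p of 0.4. The DESeq2 value was -0.20 (adjusted p = 0.724). Of the distinct 50-base stretches of FGF5 transcripts 3.95% also occurred in 129 other genes. Those genes had a summed mean normalized count of 153032, and their part in the FGF5 level was not tested.

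FGF18, a ligand of cartilage and bone growth, lies at chr5:171419656-171457623 on the plus strand and was at or near the detection floor. It had 0, 1 and 1 reads in UE7T-9 Cont against 7, 5 and 0 reads in UE7T-9 SHC4. The ratio of reads per summed size factor was 5.43, with an interval from 1.21 to 49.9 that covers counting error only (exact Clopper-Pearson interval of the share of reads). The libraries overlapped, and the limma adjusted p was 0.619.

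FGFR1, the main FGF receptor of mesenchymal cells, lies on the minus strand of chromosome 8 and made up 99.4% to 99.9% of the summed level per kb of the 3 receptors in every library. The normalized count of FGFR1 was 5106, 5174 and 5517 in UE7T-9 Cont against 5979, 6826 and 6278 in UE7T-9 SHC4. All UE7T-9 SHC4 libraries were above all UE7T-9 Cont libraries, as were those of 9.13% of all genes tested. The means were 5266 ± 220 and 6361 ± 429 (SD, n = 3 each), a ratio of 1.21. limma estimated a log2 fold change of 0.27 (SE 0.13, 95% interval -0.01 to 0.56, adjusted p = 0.37), and the adjusted p was 0.26 in DESeq2 and 0.302 in edgeR. The exact permutation p was 0.1, the smallest this design allows. Whichever library was left out, the FGFR1 log2 fold change lay from 0.22 to 0.31. Of the distinct 50-base stretches of FGFR1 transcripts 1.70% also occurred in 44 other genes. Those genes had a summed mean normalized count of 26315.5, and their part in the FGFR1 level was not tested.

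FGFR3 and FGFR4, receptors of cartilage and of liver and muscle respectively, had few reads. FGFR3 (chr4:1793293-1808872, plus strand) had 9, 2 and 8 reads in UE7T-9 Cont against 0, 1 and 2 reads in UE7T-9 SHC4, or normalized counts of 8.77, 2.35 and 7.87 against 0, 0.832 and 2.33. The groups did not overlap, by a margin smaller than 1 read, and 10.2% of all genes tested were separate in this direction. The ratio of reads per summed size factor was 0.143, with an exact interval of 0.0271 to 0.485 for counting error only, and the limma adjusted p was 0.287. FGFR4 (chr5:177086886-177098144, plus strand) had 2, 6 and 3 reads in UE7T-9 Cont against 14, 1 and 1 in UE7T-9 SHC4. The FGFR4 groups overlapped, and the sign of the log2 fold change depended on the tool (-0.28 in limma with an adjusted p of 0.911, 0.29 in DESeq2). No difference in FGFR4 was detected.

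**Figure D3:**
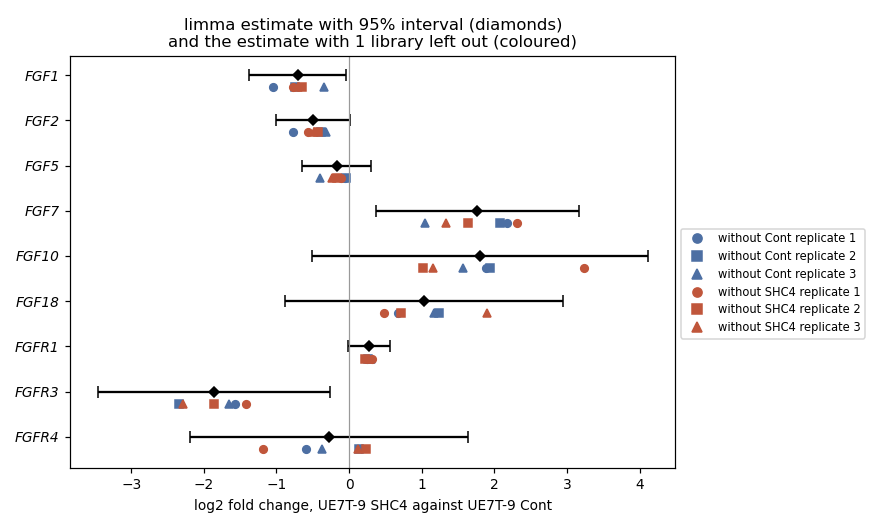
Log2 fold change of UE7T-9 SHC4 against UE7T-9 Cont for the 9 members (x axis), with diamonds and bars for the limma estimate and its 95% interval over all 6 libraries and coloured symbols for the estimate with 1 library left out. The FGF10 estimates move the most, from 1.01 to 3.24, those of FGF7 lie between 1.05 and 2.31, and the FGFR1 estimates lie between 0.22 and 0.31.

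The plot of log2 fold changes shows how far each estimate depended on a library. For FGF1 the estimates ran from -1.05 to -0.34, and for FGF2 from -0.78 to -0.31. The lowest of both was reached without UE7T-9 Cont replicate 1, the library with the highest COL1A1. For FGF5 they ran from -0.41 to -0.04. Each of these estimates kept its sign. Without both replicate 1 libraries, which left 2 against 2 and was chosen after the values were seen, limma gave -1.12 for FGF1 (adjusted p = 0.0182), -0.85 for FGF2 (adjusted p = 0.00386) and 3.33 for FGF10 (adjusted p = 0.00375). In that comparison 872 genes, 3.77% of those tested, were called.

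Other genes of the pathway were taken from 7 lists with 88 genes, of which 73 were tested. limma called none of them, with 12 at an unadjusted p below 0.05 (14.4% of all genes), while DESeq2 called 4 lower (FLRT3, HS3ST3A1, DUSP5 and ETV4, against 1.15% of all genes) and edgeR called 0. Without UE7T-9 Cont replicate 1 limma called 6 of them (FLRT3, HS3ST3A1, DUSP5 and ETV4 lower, SULF1 and IL17RD higher), where 3.06% of all genes were called, and without UE7T-9 SHC4 replicate 1 it called HS3ST3A1 (0.274% of all genes). Of the 12 other secreted ligands only 3 were listed, FGF17, FGF20 and FGF22, all with normalized counts under 13 in every library. FGF22 was at 0, 2.35 and 0.984 in UE7T-9 Cont against 2.64, 3.33 and 3.49 in UE7T-9 SHC4, near the floor in all libraries. Of the intracellular FGF homologous factors, which bind sodium channels and are not secreted, FGF14 was at 87.7, 68.3 and 64.9 in UE7T-9 Cont against 94.9, 115 and 97.8 in UE7T-9 SHC4 (limma log2 fold change 0.48, adjusted p = 0.37). FGF12 overlapped between the groups (limma adjusted p = 0.609). FGF13 had reads in UE7T-9 Cont replicates 2 and 3 only, with normalized counts of 1.18 and 29.5.

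Of the 8 co-receptors, decoy receptor and carriers tested, 5 had a positive and 3 a negative log2 fold change, and DESeq2 called 1 of them lower (1.15% of all genes). This was FLRT3, a membrane protein that binds FGF receptors. Its normalized count was 95.5, 175 and 214 in UE7T-9 Cont against 46.6, 36.6 and 53.6 in UE7T-9 SHC4, with no overlap. Of all genes tested, 10.2% were separate in this direction. The FLRT3 log2 fold change was -1.83 in DESeq2 (adjusted p = 1.01e-04) and -1.74 in limma (SE 0.32, adjusted p = 0.102). ANOS1 and FLRT1, the others named by the rule, overlapped between the groups (limma adjusted p = 0.588 and 0.572).

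Heparan sulfate presents FGF ligands to their receptors, and its core proteins and enzymes were read next. Of the 9 core proteins tested 7 had a positive and 2 a negative log2 fold change, with a median of 0.24, and limma, DESeq2 and edgeR called 0, with 1 at an unadjusted limma p below 0.05 (14.4% of all genes). SDC1 (syndecan-1) was at 5866, 7247 and 7714 in UE7T-9 Cont against 3878, 5974 and 5633 in UE7T-9 SHC4, a limma log2 fold change of -0.44 (adjusted p = 0.335). GPC2 and GPC6, the glypicans named by the rule, had log2 fold changes of 0.76 and 0.49 (limma adjusted p = 0.501 and 0.445). Of the 12 enzymes tested 4 had a positive and 8 a negative log2 fold change, with a median of -0.11. DESeq2 called 1 of them lower (1.15% of all genes), limma and edgeR called 0, and 3 had an unadjusted limma p below 0.05 (14.4% of all genes).

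HS3ST3A1, a 3-O-sulfotransferase of heparan sulfate, had the smallest p of all pathway genes. Its normalized count was 128, 174 and 152 in UE7T-9 Cont against 53.6, 42.5 and 47.7 in UE7T-9 SHC4. Every UE7T-9 SHC4 library was below every control by a wide margin, and 10.2% of all genes tested were separate in this direction. The HS3ST3A1 means were 151 ± 23.3 and 47.9 ± 5.58 (SD, n = 3 each), or -1.63 as a limma log2 fold change (SE 0.23, adjusted p = 0.0549), against -1.66 in DESeq2 (adjusted p = 1.06e-06). Its paralog HS3ST3B1 was at 64.3, 57.7 and 97.4 in UE7T-9 Cont against 14.9, 51.6 and 45.4 in UE7T-9 SHC4 (limma log2 fold change -1.09, adjusted p = 0.326).

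SULF1, an extracellular sulfatase that removes 6-O-sulfates from heparan sulfate and lowers FGF2 signaling, was at 20294, 9782 and 3762 in UE7T-9 Cont against 30626, 36411 and 41385 in UE7T-9 SHC4. All UE7T-9 SHC4 libraries were above all controls, as were those of 9.13% of all genes tested. The controls differed among themselves more than the UE7T-9 SHC4 libraries did. The SULF1 means were 11279 ± 8367 and 36140 ± 5385 (SD, n = 3 each). limma estimated a log2 fold change of 1.98 (SE 0.50, adjusted p = 0.17), against 1.68 in DESeq2 (adjusted p = 0.109), neither past the threshold. Without UE7T-9 Cont replicate 1 it was 2.56 in limma (adjusted p = 0.00528). With any other single library left out, the SULF1 value lay from 1.35 to 2.10 (limma adjusted p from 0.181 to 0.588).

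The 21 genes of the intracellular signal relay, from FRS2 and GRB2 to MAPK3, differed little. Their limma log2 fold changes lay between -0.71 and 0.36 with a median of -0.01, 10 were positive and 11 negative, and limma, DESeq2 and edgeR called none. An unadjusted limma p below 0.05 was found for 0 of them. SHC3, a neuronal adaptor of the SHC family, had the lowest value (-0.71, limma adjusted p = 0.424). NRAS was at 2143, 2249 and 2165 in UE7T-9 Cont against 1956, 1800 and 1765 in UE7T-9 SHC4, a small separation (limma log2 fold change -0.25, adjusted p = 0.352). Of all genes tested, 10.2% were separate in this direction. MAPK3 (ERK1) overlapped between the groups (limma log2 fold change 0.36, adjusted p = 0.394).

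Feedback inhibitors and transcription targets of FGF signaling had mostly negative log2 fold changes. This held for 14 of the 17 genes, beside 50.3% of all genes tested, and the median of the list was -0.33. The 3 positive ones were IL17RD, FOS (0.79, limma adjusted p = 0.749) and CCND1 (0.18, limma adjusted p = 0.752). DUSP6, SPRY2 and EGR1 overlapped between the groups. DUSP4 was -0.09 in limma and 0.09 in DESeq2. Its normalized count was 193 and 134 in replicate 1 of UE7T-9 Cont and UE7T-9 SHC4, against 847 to 1163 in the other libraries. DESeq2 called 2 of the 17 lower, DUSP5 and ETV4 (1.15% of all genes). It gave an adjusted p below 0.05 to another 2, SPRY4 and SPRED3, whose log2 fold changes were within 1. Lower genes with such a p, whatever their fold change, were 2.08% of all genes. limma and edgeR called none, with 7 at an unadjusted limma p below 0.05, of which 6 were lower (6.96% of all genes). The groups were separate and lower for 6 of the 17, SPRY1, SPRY4, SPRED2, SPRED3, ETV4 and ETV5, as they were for 10.2% of all genes. The number of negative values was 14 under both other scalings, 15 without UE7T-9 Cont replicate 1 and 11 without UE7T-9 SHC4 replicate 1. These genes also respond to other growth factors that signal through RAS and MAPK.

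**Figure D4:**
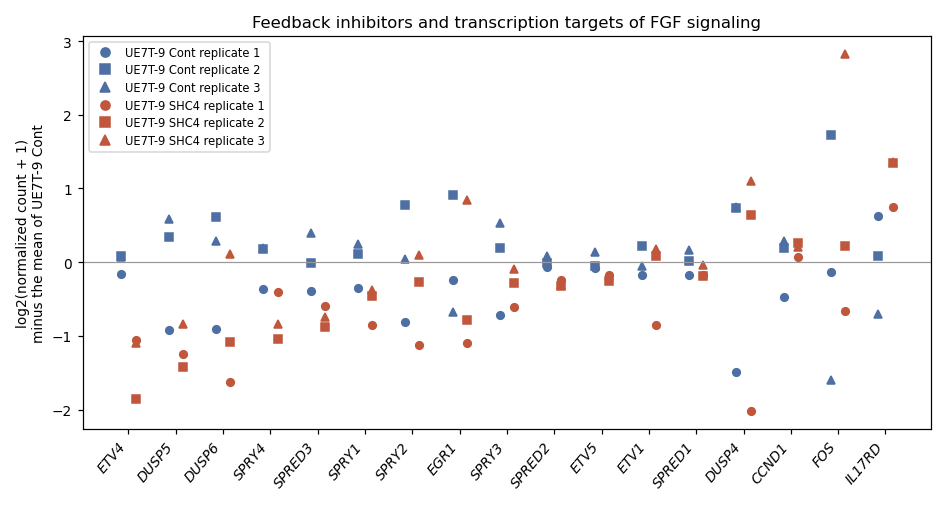
Difference of log2(normalized count + 1) from the mean of UE7T-9 Cont (y axis) for 17 feedback inhibitors and transcription targets, ordered by limma log2 fold change, in each library of UE7T-9 Cont (blue) and UE7T-9 SHC4 (red). ETV4 shows all red symbols below all blue ones, while for DUSP5 the control replicate 1 (blue circle) reaches into the range of UE7T-9 SHC4.

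The plot of feedback inhibitors and targets shows where single libraries crossed. The normalized count of ETV4, a transcription factor of the ETS family, was 115, 137 and 136 in UE7T-9 Cont against 61.5, 35.0 and 59.4 in UE7T-9 SHC4. Each UE7T-9 SHC4 library was below each control. The log2 fold change of ETV4 was -1.32 in DESeq2 (adjusted p = 0.00175) and -1.34 in limma (SE 0.27, adjusted p = 0.116). DUSP5, a nuclear phosphatase of MAP kinases, was at 1011, 2425 and 2874 in UE7T-9 Cont against 810, 712 and 1076 in UE7T-9 SHC4. UE7T-9 Cont replicate 1 was below UE7T-9 SHC4 replicate 3, so the DUSP5 groups overlapped. The log2 fold change of DUSP5 was -1.28 in DESeq2 (adjusted p = 0.00957) and -1.17 in limma (SE 0.35, adjusted p = 0.201).

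SPRY4 (Sprouty4), which restrains RAS activation, was at 447, 653 and 660 in UE7T-9 Cont against 436, 281 and 321 in UE7T-9 SHC4. The lowest control and the highest UE7T-9 SHC4 library, both replicate 1, were nearly level. Its log2 fold change was -0.76 in both limma (adjusted p = 0.188) and DESeq2 (adjusted p = 0.0486). For SPRY4 limma gave -0.95 without UE7T-9 Cont replicate 1 (adjusted p = 0.0227) and -0.94 without UE7T-9 SHC4 replicate 1 (adjusted p = 0.113). With any other single library left out, SPRY4 lay from -0.72 to -0.63 (limma adjusted p from 0.411 to 0.588). SPRED3 was at 316, 411 and 545 in UE7T-9 Cont against 272, 225 and 246 in UE7T-9 SHC4, a log2 fold change of -0.78 in DESeq2 (adjusted p = 0.0412) and of -0.74 in limma (adjusted p = 0.188). For SPRED3 limma gave -0.94 without UE7T-9 Cont replicate 1 (adjusted p = 0.0178) and -0.81 without UE7T-9 SHC4 replicate 1 (adjusted p = 0.186). With any other single library left out, SPRED3 lay from -0.75 to -0.54 (limma adjusted p from 0.402 to 0.588). IL17RD (SEF), an inhibitor of FGF receptors that was chosen here after its values were seen, went the other way, at 110, 75.3 and 43.3 in UE7T-9 Cont against 120, 183 and 184 in UE7T-9 SHC4 (limma log2 fold change 1.15, adjusted p = 0.201).

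The genes most like a member in pattern over the 6 libraries were looked up among 12677 genes with a mean of at least 50, as a description. FGF5 was followed most closely by MARCHF6 (Pearson r of log2 values 0.993), GPC4 (0.988) and DNAJC15 (0.965). FGFR1 was followed by VMAC (0.989) and CTTN (0.988), and FGF7 by SOCS5 (0.998), ANTXR1 (0.995) and UTP25 (0.995). Among the 12677 genes, 50 exceeded an r of 0.9 with FGF5, 253 with FGFR1 and 520 with FGF7. Each r rests on 6 libraries, and all genes share the depth and scaling of these libraries, whose part in these values was not tested.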

How the data were processed

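Total RNA of 3 UE7T-9 Cont and 3 UE7T-9 SHC4 samples (RNeasy, NEBNext Ultra RNA kit) was sequenced by Novogene. The authors deposited 1 signal per gene and library, a normalized count keyed by Ensembl identifier. Per the labels, the processing notes name HISAT2 2.0.5, featureCounts 1.5.0-p3 and DESeq2, without roles. Genome build, annotation and strand setting are not given in the sources used here. All values (100%, tolerance 0.01 reads) were whole multiples of 1 read, so reads were recovered by division, with size factors from 0.849 to 1.20. No 2 libraries were duplicates. Symbols matched 99.2% of identifiers. Positions and exon lengths are from GENCODE 29 on GRCh38, by identifier.

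The test was limma 3.58.1 (lmFit, eBayes with trend) under R 4.3.3. It was applied to log2(value + 1), a scale that understates changes of low genes, and 23040 genes, all 9 members among them, reached the minimum mean of 1. P-values were Benjamini-Hochberg adjusted over all genes tested. DESeq2 1.42.0 and edgeR 4.0.16 (quasi-likelihood) were run on the recovered reads. An adjusted p that DESeq2 left out was kept missing. Of 200 genes given a log2 change of 2 in simulated libraries, limma and edgeR each recovered 199 and DESeq2 196. limma, edgeR and DESeq2 also called 16, 11 and 15 unchanged genes. The changed genes had a mean of at least 50, which FGF10, FGF18, FGFR3 and FGFR4 did not reach. The simulated libraries were drawn independently, without the likeness of the replicate 1 libraries. The recovery is therefore no measure of power for the members.

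Members and gene lists were chosen with earlier results of these data known. Of each pathway list, the genes called by limma or DESeq2 and the 3 with the smallest limma p are named. Pattern neighbours are the 3 genes with the highest Pearson r to the top ligand, the top receptor and the member with the smallest limma p. Of these neighbours 1 of FGFR1 is not reported here.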

Additional observations from a re-analysis of the deposited data

How the results depend on the processing

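Over all genes limma called 14. The count of members called was 0 in limma and 1 in DESeq2, in DESeq2 without UE7T-9 Cont replicate 1 and in DESeq2 without UE7T-9 SHC4 replicate 1, 0 to 1 with each library left out, and 3 in limma without both replicate 1 libraries. The pathway count was 0 in limma, 4 in DESeq2 (7 without UE7T-9 Cont replicate 1, 5 without UE7T-9 SHC4 replicate 1), 1 under TMM scaling, under library size scaling and without the filter, 0 to 6 with each library left out, and 8 without both replicate 1 libraries. The count over all genes was 355 in DESeq2, 24 under TMM scaling, 28 under library size scaling, 40 without the filter, 39 with the replicate block, 2 to 706 with each library left out (706 without UE7T-9 Cont replicate 1, 2 without UE7T-9 SHC4 replicate 2 or 3), and 872 without both replicate 1 libraries. The causes were not tested. The fits without both replicate 1 libraries and the DESeq2 fits without a library were chosen after seeing the data. FGF5 was -0.41 to -0.04 with each library left out and changed sign to 0.0035 without both replicate 1 libraries, where FGFR4 was -1.503. FGFR4 changed sign to 0.29 in DESeq2 and to 0.14, 0.24 and 0.12 without UE7T-9 Cont replicate 2, UE7T-9 SHC4 replicate 2 and UE7T-9 SHC4 replicate 3 (-1.19 to 0.24 with each library left out). Library size scaling shifted the median log2 fold change of all genes to -0.10. Same-numbered libraries deviated from their group means with correlations of 0.148, 0.0130 and -0.00696 across 23040 genes, so not every pair exceeded 0.1 and the numbers were not taken as pairing the libraries, although replicate 1 of both groups was alike. The replicate block left the count of members and of pathway genes called at 0. Pseudocounts of 0.1 and 5, a mean of at least 10, the rule without a fold threshold and edgeR called 0 members. FGF18, FGFR3 and FGFR4 had only 2 to 19 reads summed over a group. Counting error and spread between libraries were not separated for them.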
